A study of Rattus norvegicus with 20 samples.

Results

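The genes described here encode the endocannabinoid receptor of the brain and the enzymes that make and break down its lipid ligands. They are Cnr1, Faah, Mgll, Dagla and Napepld, and they were taken as the probe sets that the array's annotation gives to exactly 1 of these symbols. Of the 5 genes, 3 were measured (Cnr1, Faah and Mgll), with 8 of the 31099 probe sets of the array. Dagla and Napepld had no probe set under their symbols and were not analysed here. Where a gene had several probe sets, the one with the highest mean over all 20 arrays gives its main value, and the others are given beside it.

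The tissue was the central amygdala, taken from rats of the P (alcohol-preferring) line, which was selectively bred to choose ethanol. In the ethanol group, 10 rats had access to 15% and 30% ethanol during adolescence. In the water group, 10 P rats had water only. RNA of each animal was read on 1 Affymetrix rat array, and every animal of both groups comes from the same line, so no other strain enters the comparison. The comparison asks how expression in this nucleus differed after adolescent drinking.

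Cnr1 encodes the cannabinoid receptor CB1, a G protein-coupled receptor that sits mainly on axon terminals and lowers transmitter release. Its lipid ligands are made on demand in the postsynaptic cell and travel backwards across the synapse. Dagla encodes a lipase that makes the ligand arachidonoylglycerol, and Mgll encodes the lipase that hydrolyses most of it. Napepld encodes a phospholipase that releases anandamide and related N-acylethanolamines, and Faah encodes the hydrolase that breaks them down. In the central amygdala, which is built mainly of GABA neurons, CB1 is known to dampen both GABA and glutamate release.

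The arrays had similar medians, between 7.92 and 7.96 on the log2 scale, and each array's mean correlation with the others lay between 0.984 and 0.995. The arrays of ethanol animal 5 and of water animals 15 and 18 stood apart, with the lowest mean correlations. Of the 6 listed central amygdala markers, 5 were above the filter (Prkcd, Sst, Crh, Nts and Penk), with gene means between 9.70 and 14.57, and Tac2 was not used. The mean of the oligodendrocyte markers differed by -0.34 (log2, ethanol minus water), with 7 of 7 genes lower in ethanol animals. The mean of the pan-neuronal markers differed by 0.13, with 8 of 8 genes higher. The choroid plexus and ependyma markers ranged from 6.43 to 11.46 in ethanol animals and from 6.86 to 11.88 in water animals, a difference of the means of -1.42. The part of these differences in the values below was not tested beyond the fits that carry a marker mean as a covariate.

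None of the 3 measured genes differed between ethanol and water animals in limma's test adjusted over all 18625 tested probe sets. In the same test 4 probe sets were called, which is 0.0215% of those tested. Of the 8 member probe sets, 0 had an unadjusted limma p under 0.05, against 12.8% of all tested probe sets. All values are log2 RMA summaries, and a difference is the ethanol mean minus the water mean. A value from bulk tissue cannot tell fewer cells of a type and less RNA per cell apart.

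Cnr1 ranged from 11.69 in ethanol animal 5 through a median of 12.54 to 12.87 in ethanol animal 6. In water animals it ranged from 11.43 in animal 16 through a median of 12.33 to 12.75 in animal 20. The groups overlapped over most of their range, and 9 of 10 ethanol animals lay above the water mean. The means were 12.47 ± 0.34 in ethanol animals and 12.24 ± 0.43 in water animals (SD, n = 10 each). The difference was 0.22 (SE 0.16), a fold of 1.17, with a 95% interval from -0.11 to 0.56 and a limma adjusted p of 0.550. A permutation of the group labels gave an unadjusted p of 0.2104 for this gene.

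The receptor varied widely among animals of 1 group. Its within-group SD of 0.39 was larger than that of 95.9% of the tested probe sets. The highest animal had 2.25 times the signal of the lowest in ethanol animals and 2.48 times in water animals. The second Cnr1 probe set followed the main one with a Pearson r of 0.69 in ethanol and 0.95 in water animals. Its lowest animals were the same, ethanol animal 5 and water animal 16, and water animal 20 was again the highest of its group. Its difference was 0.08, with a limma adjusted p of 0.855.

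Single animals moved the size of the Cnr1 difference. Without ethanol animal 5 it was 0.31, with an unadjusted limma p of 0.047 and an adjusted p of 0.362. Without water animal 16 it was 0.13. With the striatal marker mean as a covariate it was 0.32 (limma adjusted p 0.334), and with the oligodendrocyte marker mean 0.13 (adjusted 0.811). In the striatal fit 1 of the 8 member probe sets had an unadjusted limma p under 0.05, beside 14.2% of all tested probe sets. In the oligodendrocyte fit 3 of the 8 were higher in ethanol animals, against 7 without a covariate. In the 3 runs of the accession order, which no label names as a batch, the Cnr1 difference was 0.25, 0.48 and -0.33. Its sign thus turned in the last run, which holds 2 animals a group.

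**Figure D1:**
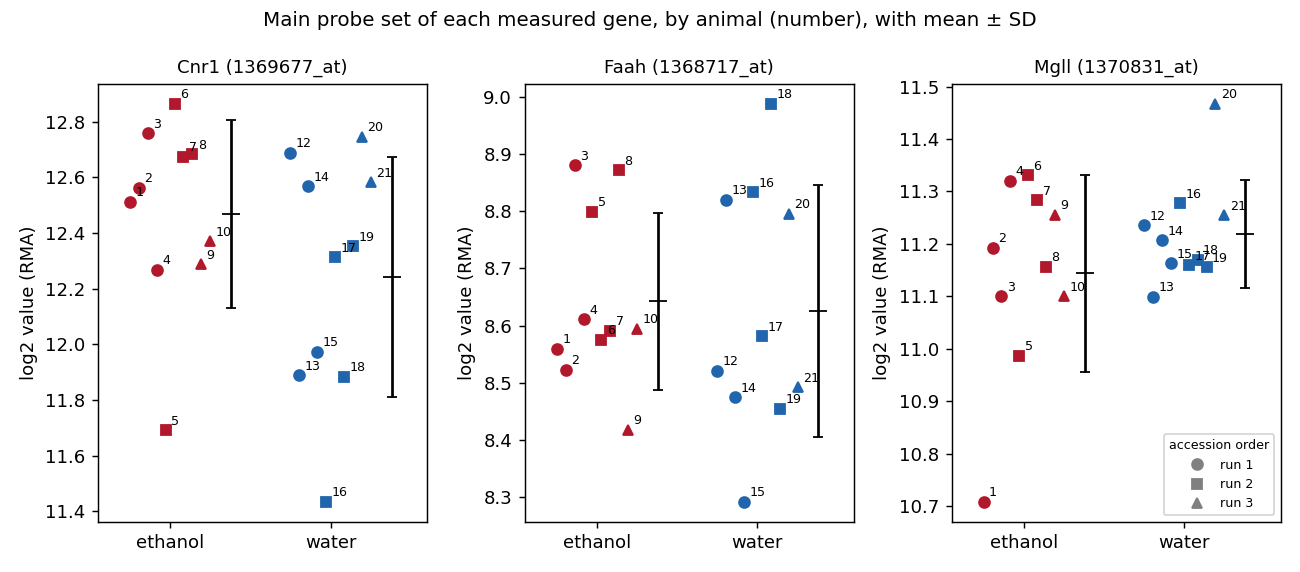
Log2 RMA value of the main probe set of Cnr1, Faah and Mgll in each animal, ethanol left of water, with the animal number beside its point, marker shapes for the runs of the accession order, and the group mean and SD as a bar. The groups overlap for all 3 genes, and Faah shows a gap without animals in each group.

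Faah, the anandamide hydrolase, was the most similar between groups. It ranged from 8.42 in ethanol animal 9 through a median of 8.59 to 8.88 in ethanol animal 3. In water animals it ranged from 8.29 in animal 15 through a median of 8.55 to 8.99 in animal 18. The ethanol range lay inside the water range. The means were 8.64 ± 0.15 in ethanol animals and 8.63 ± 0.22 in water animals (SD, n = 10 each), a difference of 0.02 (SE 0.082) with a 95% interval from -0.15 to 0.19 and a limma adjusted p of 0.949. The second Faah probe set gave 0.02, with a limma adjusted p of 0.927.

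The animals of both groups fell on either side of a gap in the values of the main Faah probe set. In the ethanol group 7 animals lay at or below 8.61 and 3 at or above 8.80. In the water group 6 animals lay at or below 8.58 and 4 at or above 8.80. The gap took 0.41 of the range in ethanol and 0.31 in water animals. The other Faah probe set followed the main one with an r of 0.54 in ethanol and 0.85 in water animals. It did not show the gap between the same animals. There, ethanol animal 8, from above the gap, had 8.01, and ethanol animal 10, from below it, had 8.04. Water animals 13 and 12, from above and below the gap, had 7.971 and 7.968. The split of the main probe set was noticed in the plotted values, and no label of the animals marks it.

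Mgll, the arachidonoylglycerol lipase, ranged from 10.71 in ethanol animal 1 through a median of 11.17 to 11.33 in ethanol animal 6. In water animals it ranged from 11.10 in animal 13 through a median of 11.19 to 11.47 in animal 20. The ethanol animals reached lower and the water animals slightly higher, with most values shared. The means were 11.14 ± 0.19 in ethanol animals and 11.22 ± 0.10 in water animals (SD, n = 10 each). The difference was -0.08 (SE 0.066), with a 95% interval from -0.21 to 0.06 and a limma adjusted p of 0.634.

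The other 3 Mgll probe sets had differences of the opposite sign, 0.03, 0.02 and 0.09 in descending order of their mean signal, and the mean of all 4 gave 0.015. None of them passed the limma test, so the data give no direction for this gene. Ethanol animal 1 was the lowest ethanol animal in 3 of the 4 Mgll probe sets, and water animal 20 was the highest water animal in all 4.

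**Figure D2:**
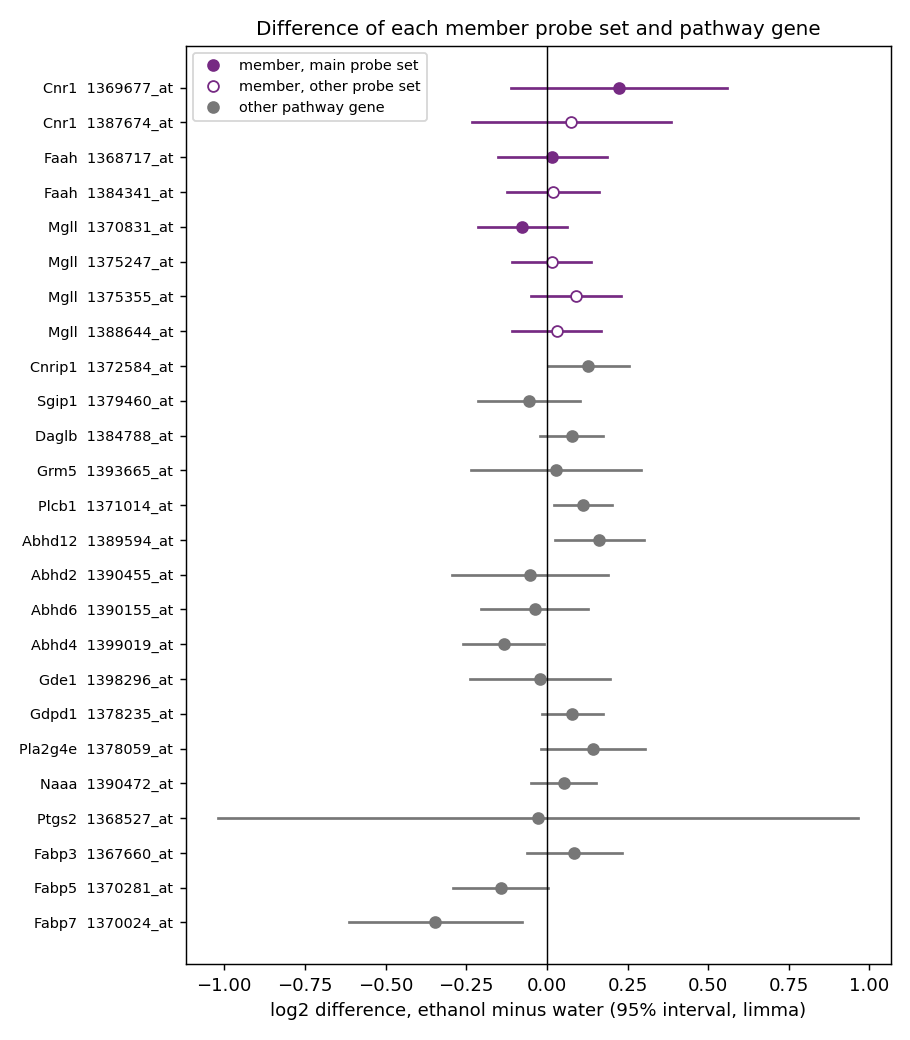
Log2 difference (ethanol minus water) with its 95% limma interval for each member probe set and for the main probe set of each pathway gene above the filter. Every member interval crosses 0, from 0.22 for the main Cnr1 probe set to -0.08 for the main Mgll probe set.

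The other genes of the pathway were read from a list of 21 genes, 20 of which are on the array and 17 above the filter. By limma's adjusted p, 0 of the 17 passed, 9 being higher and 8 lower in ethanol animals. Unadjusted, 5 of 17 (29.4%) had a limma p under 0.05, beside the 12.8% of all tested probe sets. The list was chosen with earlier results of these data known and holds main probe sets only. Its share is thus not independent of the data. The median difference over the list was 0.03, against 0.02 over all tested probe sets. Adjusted p-values over the list ran from 0.314 to 0.988.

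Among receptors and receptor partners, Cnr2, which encodes the cannabinoid receptor of immune cells, Trpv1, an ion channel opened by anandamide, and Ppara, a nuclear receptor for N-acylethanolamines, lay below the filter. Their means were 5.40, 5.82 and 5.37 in ethanol animals, against 5.36, 5.67 and 5.40 in water animals. Gpr55 had no probe set under its symbol. Cnrip1, which binds the tail of CB1, averaged 11.82 ± 0.11 in ethanol animals and 11.70 ± 0.16 in water animals (SD, n = 10 each), a difference of 0.13 with a limma adjusted p of 0.382. Sgip1, an endocytic adaptor that also binds CB1, had -0.06 on its main probe set and 0.13 on the other.

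Of the named enzymes that make or hydrolyse arachidonoylglycerol, Abhd12, a serine hydrolase, had the largest difference. It averaged 10.36 ± 0.13 in ethanol animals and 10.20 ± 0.17 in water animals (SD, n = 10 each), a difference of 0.16 with an unadjusted limma p of 0.023 and an adjusted p of 0.333. Abhd6, another hydrolase of this lipid, had a difference of -0.04 on its main probe set and 0.02 on the other. Daglb, the second diacylglycerol lipase, had 0.08 on its main probe set and -0.10 on the other, so its probe sets disagree in sign.

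Among genes of anandamide synthesis and breakdown, Abhd4, a lipase of an alternative synthesis route, averaged 10.47 ± 0.11 in ethanol animals and 10.60 ± 0.16 in water animals (SD, n = 10 each), a difference of -0.13 with a limma adjusted p of 0.368. The phosphodiesterase Gde1 had -0.02 and the acid amidase Naaa 0.05. Ptgs2, the cyclooxygenase that can oxidise both ligands, varied from 7.23 to 10.52 in ethanol animals and from 7.03 to 10.69 in water animals, and its difference was -0.03.

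Among fatty acid binding proteins, which carry anandamide inside cells, Fabp7 averaged 11.77 ± 0.23 in ethanol animals and 12.12 ± 0.37 in water animals (SD, n = 10 each). Its difference was -0.35, the largest of the list, with a limma adjusted p of 0.314. Fabp5 had a difference of -0.14, with a limma adjusted p of 0.396. Fabp7 is also an astrocyte gene, and the mean of the astrocyte markers differed by -0.13, with 6 of 7 genes lower in ethanol animals. Whether this has a part in the Fabp7 difference was not tested. With the oligodendrocyte marker mean as a covariate, 1 of the 17 genes (5.88%) had an unadjusted limma p under 0.05, beside 12.1% of all tested probe sets in that fit. With the pan-neuronal mean it was also 1 (5.88%, beside 9.93%), and with the striatal mean 6 (35.3%, beside 14.2%).

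The animals of 1 group were then compared with each other, over all 10 animals as designed. Of the 6 tests over 3 pairs of genes, 0 passed the Benjamini-Hochberg threshold in the permutation test, and 0 had an unadjusted p under 0.05. Cnr1 and Mgll had a Pearson r of 0.26 in ethanol animals and 0.40 in water animals, with adjusted permutation p of 0.736 in both. Without the 2 animals farthest from the median of Cnr1 these became -0.18 in ethanol and 0.75 in water animals. The Spearman rho was 0.28 in ethanol and 0.38 in water animals.

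Cnr1 and Faah had an r of -0.01 in ethanol and -0.42 in water animals. Over the animals below the Faah gap alone, a choice made after the values were seen, r was 0.27 over 7 ethanol animals and 0.69 over 6 water animals. The sign thus differed between all animals and the lower Faah cluster in both groups. None of these values passed the permutation test, which was exact only over the cluster animals. Faah and Mgll had an r of -0.19 in ethanol and 0.20 in water animals. No difference of r between the groups passed a permutation of the group labels, with adjusted p between 0.620 and 0.768 over 3 pairs.

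**Figure D3:**
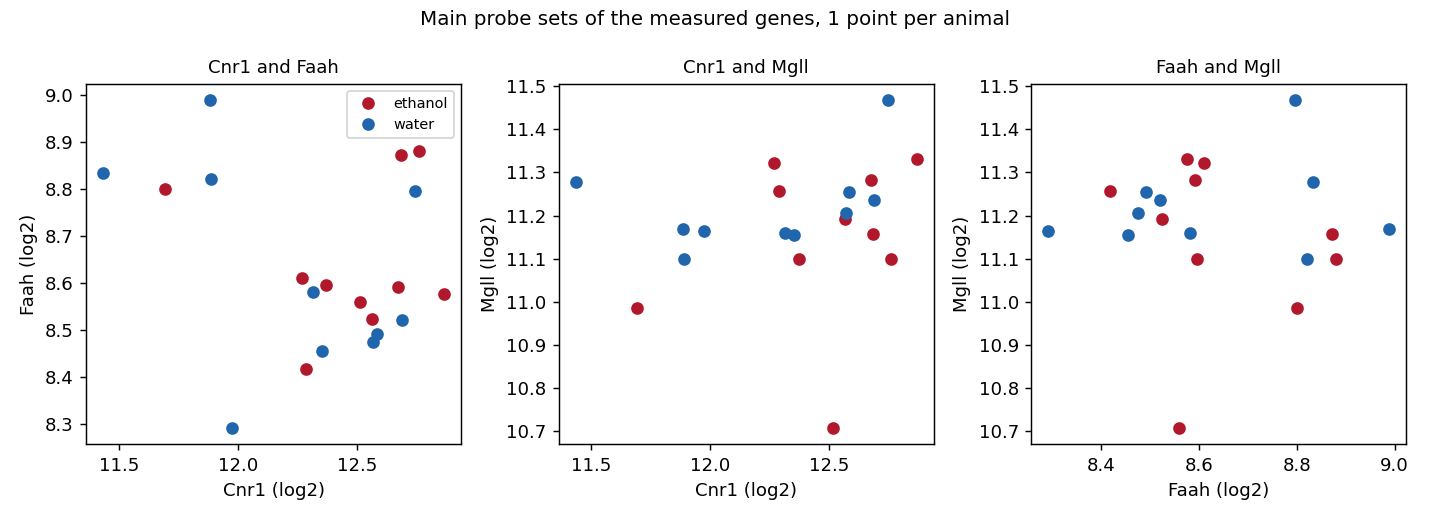
Log2 values of each pair of main probe sets, 1 point per animal, ethanol and water in separate colours. No pair lies along a line in either group, and the gap in Faah values is seen in both panels that hold it.

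The members were also set against the mean of each of 12 cell type marker lists, in 72 tests added after the data were seen. Over all 10 animals, 1 of 72 passed the adjusted permutation test. Faah had an r of -0.94 with the GABA neuron mean in ethanol animals (permutation adjusted p 0.00576) and -0.66 in water animals (adjusted 0.309). The mean was taken over the GABA neuron markers Gad1, Gad2 and Slc32a1. With the cortical and basolateral excitatory neuron mean, Faah had an r of 0.77 in ethanol and 0.42 in water animals. With the CCK interneuron mean, taken over Cck and Vip only, it had 0.60 and 0.27. Both means were highest in ethanol animal 3 (cortical 10.63, CCK 10.66) and water animal 20 (10.63 and 10.24). How far the cortical and CCK means overlap was not tested. Without the arrays that stand apart, the cortical r was 0.90 and 0.89 and the CCK r 0.86 and 0.91. Over the animals below the Faah gap, the cortical r was 0.67 and -0.82 and the CCK r 0.59 and -0.86. None of these passed the adjusted permutation test. Without the 2 animals farthest from the median of each mean, the cortical r was 0.34 in ethanol and 0.17 in water animals. The CCK r was then 0.24 and -0.07.

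The relation of Faah with the GABA neuron mean was also read over the animals below the Faah gap. This cut was made on Faah itself after the values were seen, so it cannot show whether the relation depends on the gap. Over the lower cluster alone, r was -0.79 over 7 ethanol animals (exact permutation adjusted p 0.308) and 0.75 over 6 water animals, so that it turned sign in the water group. Without the arrays that stand apart, r was -0.95 over 9 ethanol animals (adjusted permutation p 0.0599) and -0.85 over 8 water animals (adjusted 0.127). Without the 2 animals farthest from the median of the GABA neuron mean, it was -0.89 in ethanol and -0.17 in water animals. Over all animals, the difference of r between the groups was -0.28, with a permutation p of 0.5092.

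Cnr1 had an r with the central amygdala mean of 0.63 in ethanol animals (adjusted permutation p 0.309) and 0.85 in water animals (adjusted 0.0569), neither past the threshold. With the CCK interneuron mean it had 0.64 in ethanol and -0.26 in water animals. Its r with the meninges mean was -0.76 in ethanol and -0.69 in water animals, also short of it, with an adjusted permutation p of 0.276 in ethanol and 0.278 in water animals. Without the arrays that stand apart, the meninges r was -0.33 in ethanol animals, where ethanol animal 5 alone is left out, and -0.82 in water animals. The difference of the central amygdala r between groups was -0.23, with a permutation p of 0.1728. Mgll had an r of 0.72 with the central amygdala mean in ethanol animals (adjusted permutation p 0.192) and 0.23 in water animals.

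**Figure D4:**
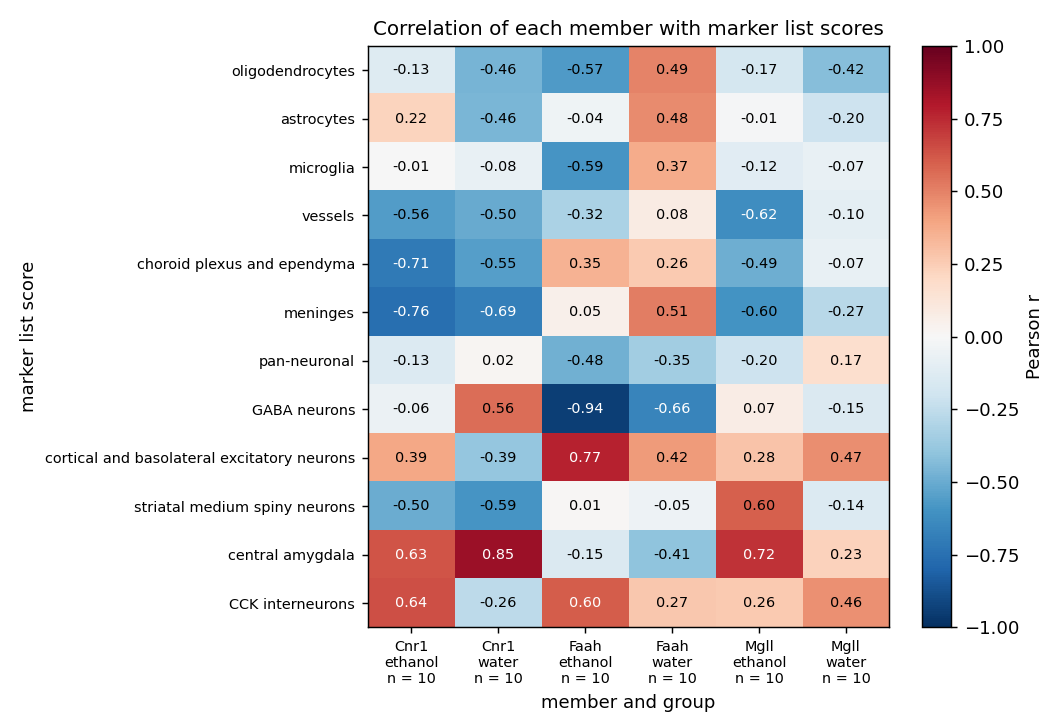
Pearson r of each member's main probe set with each marker list mean, over the 10 animals of a group, ethanol column left of water column for each gene. The darkest cells are Faah with GABA neurons in ethanol animals (-0.94) and Cnr1 with the central amygdala list in water animals (0.85).

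The single markers of these lists were examined because of those values, as a family of 16 tests adjusted among themselves only. Sst, the somatostatin gene of a main class of central amygdala neurons, followed Cnr1 with an r of 0.77 in ethanol animals (adjusted permutation p 0.0146) and 0.96 in water animals (adjusted 0.0004). The Spearman rho was 0.76 in ethanol and 0.89 in water animals. Among all tested probe sets, 0.0698% had a larger absolute r with Cnr1 than Sst over all 20 animals after centring each group. The same share was 1.78% for Prkcd, 1.92% for Crh, 3.33% for Nts and 88.1% for Penk.

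Prkcd, the kinase gene of the other main class, had an r of 0.67 with Cnr1 in ethanol animals (adjusted permutation p 0.0395) and 0.81 in water animals (adjusted 0.0146). Crh, which encodes a stress peptide, had 0.69 in ethanol and 0.78 in water animals. Nts, the neurotensin gene, had 0.53 in ethanol animals (adjusted permutation p 0.132) and 0.79 in water animals (adjusted 0.0158). Without the 2 animals farthest from its median, the Nts r was 0.05 in ethanol and 0.61 in water animals. Penk, the enkephalin gene, had -0.15 in ethanol and 0.14 in water animals. By Spearman rho, Prkcd passed in water animals (adjusted permutation p 0.0096) but not in ethanol animals (0.128). Crh (0.0866 in ethanol, 0.128 in water animals) and Nts (0.25 and 0.128) passed in neither group by rho. In water animals the largest Cnr1 gap with at least 2 animals on each side ran from 11.97 to 12.31. It took 0.26 of the range, short of the 0.3 set for Faah. Over the 6 water animals above it, r was 0.78 for Sst, 0.62 for Prkcd, 0.02 for Crh, -0.36 for Nts and 0.36 for Penk. This cut was made on Cnr1 itself after the values were seen, so it cannot show whether these relations depend on the gap.

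Each of the 3 GABA markers was also set against Faah. Gad1, which encodes a GABA-synthesising enzyme, had an r with Faah of -0.60 in ethanol animals (adjusted permutation p 0.0894) and -0.89 in water animals (adjusted 0.00032). Gad2, its paralogue, had -0.83 in ethanol animals (adjusted permutation p 0.0146) and -0.39 in water animals (adjusted 0.293). Slc32a1, the vesicular GABA transporter gene, had -0.78 in ethanol animals (adjusted permutation p 0.0158) and -0.70 in water animals (adjusted 0.0306). By Spearman rho, Gad1 in water animals and Slc32a1 in ethanol animals passed (adjusted permutation p 0.00048 in both). Gad2 in ethanol animals and Slc32a1 in water animals did not pass by rho (0.0798 in both). Over the lower Faah cluster, r in the 7 ethanol animals was -0.53 for Gad1, -0.42 for Gad2 and -0.47 for Slc32a1. In the 6 water animals it was -0.79 for Gad1, 0.89 for Gad2 and 0.35 for Slc32a1, so the sign for Gad2 and Slc32a1 turned there.

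**Figure D5:**
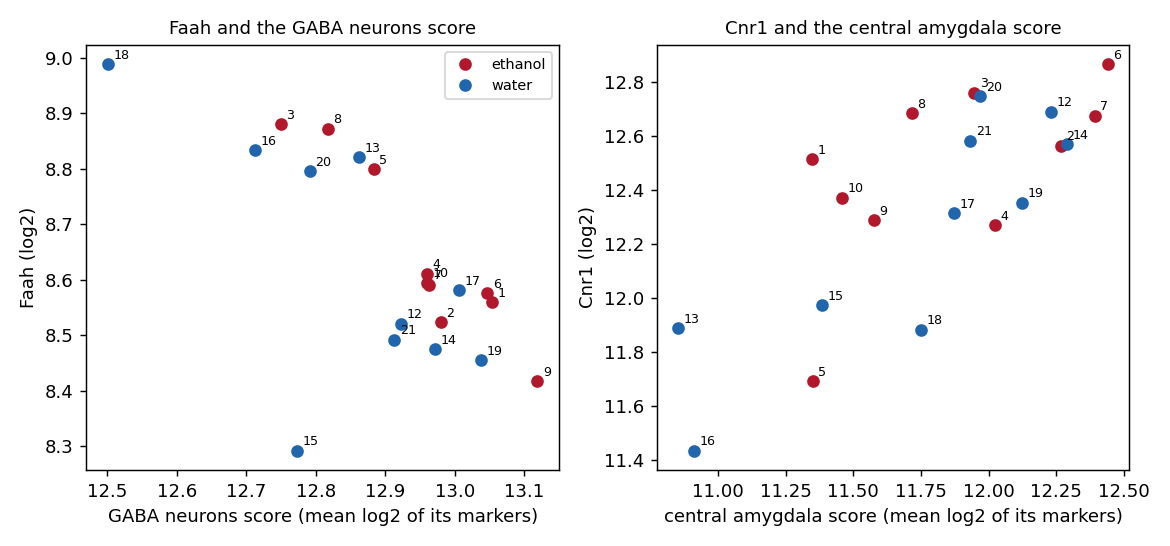
Left, Faah against the GABA neuron marker mean, and right, Cnr1 against the central amygdala marker mean, all log2, 1 numbered point per animal. The Faah values fall into a higher and a lower group, and Cnr1 is lowest in ethanol animal 5 (11.69) and water animal 16 (11.43).

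The genes most like each member were taken by Pearson r over the 20 animals after each group was centred on its mean, as a description. For Cnr1 they were Trpc4, a cation channel gene, with 0.93, and Eps8 and Gpr161, each with 0.92. For Faah they were Rap1b with 0.83, Id2 with 0.81 and Myh9 with 0.80. For Rap1b, Id2 and Myh9 in that order, r was 0.35, 0.51 and 0.54 over the 13 animals of the lower Faah cluster. For Mgll they were Eeig2 with 0.86, Ptk2b with 0.79 and Camk4 with 0.78.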

How the data were processed

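Per the submitters' processing notes, the authors made the deposited log2 values with RMA, 1 summary per probe set and array. The sources used here do not give the RMA version. The log base was inferred from the value range, with array medians of 7.92 to 7.96. The array count, 10 a group, limits the precision. Members and lists were chosen with earlier results of these data known. The named genes were the members, 15 genes of the pathway list and the 3 genes most like each member. Probe sets with a mean above the 40th percentile (log2 7.14) were tested with limma 3.58.1 in R 4.3.3, two-sided, adjusted over 18625, after a check on simulated data. The annotation repeats the symbol Faah for its probe sets, which were kept as 1 gene.

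The design fixed 10 member pairs, each over the 10 animals of a group. Only 3 pairs had values, so 6 tests were adjusted together (100000 resamples with seeds, two-sided). Several choices followed a look at the data. These were the marker list family (72 tests), the pathway gene family (102 tests), the single markers (16 tests, chosen for the marker list results), the restriction to the larger Faah cluster with its gap rule (over 0.3 of the range in both groups), and permuting within runs. For a time the cluster restriction, and then a minimum of animals with permutation within runs, replaced the designed setting. Both changed which correlations passed, so the designed setting was restored and both are given as alternatives.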

Additional observations from a re-analysis of the deposited data

Results flagged for a closer look

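Of 44 groups of 10 animals examined, 9 had 1 animal far from the others by Dixon's criterion, which chance does in about 1 in 20 groups. Among the members, Cnr1 was low in ethanol animal 5 (11.69), its second probe set was high in ethanol animal 3 (8.338), and Mgll was high in water animal 20 (11.47). Cnrip1 was low in water animal 18 (11.29), and Abhd12 was low in water animal 15 (9.766). Both Abhd6 probe sets were low in ethanol animal 1 (9.543 and 8.872), the lowest ethanol animal for Mgll too. Gde1 was high in ethanol animal 5 (12.44) and in water animal 18 (12.8). Ethanol animal 5 and water animals 15 and 18 are the arrays that stand apart, and without them the Cnr1 difference was 0.23.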

How the results depend on the processing

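No setting called any of the 3 members or any pathway gene. Leaving out 1 animal in turn gave a difference of 0.135 to 0.311 for Cnr1, -0.020 to 0.057 for Faah and -0.096 to -0.027 for Mgll, and 1 to 8 called probe sets. The Cnr1 difference was -0.33 in the last run, Faah -0.0053 in the second and -0.14 in the last, and Mgll 0.015 over all its probe sets. The probe sets past the threshold, 4 as reported, were 2 with the filter at the 60th percentile, 23 with array weights, 1 with the striatal mean, 0 with the oligodendrocyte mean and 1 with the pan-neuronal mean as a covariate (limma). No paired analysis was possible because no animal number occurs in both groups.

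The sign also turned for Abhd6 (0.031) with weights, for Gde1 with weights (0.0089), the oligodendrocyte mean (0.083) and the pan-neuronal mean (0.017), and for Ptgs2 with weights (0.39), the 3' to 5' ratio (0.017) and without the arrays that stand apart (0.14). Leaving out animals, Abhd6 ran from -0.068 to 0.0091, Gde1 from -0.068 to 0.061 and Ptgs2 from -0.24 to 0.20. By run of the accession order, Fabp7 had -0.36, -0.59 and 0.17, Abhd4 -0.20, -0.19 and 0.11, and Cnrip1 0.13, 0.24 and -0.10. The sign of Fabp7, Abhd4 and Cnrip1 thus turned in the last run. The r of Cnr1 and Faah in ethanol animals was 0.13 as Spearman rho, 0.0075 with centred arrays, 0.51 without the arrays that stand apart and 0.27 in the lower Faah cluster, and in water animals 0.69 in that cluster.

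No member pair passed in any of the 9 settings. The marker list correlations past the threshold, 1 over all animals, were 2 with centred arrays, 3 centred on each run, and 0 in each of 4 settings: without the arrays that stand apart, with the mean of probe sets, in the larger Faah cluster, and permuted within runs. The last allows 1152 orderings, too few for 1 of 72 tests to pass alone. Of the pathway gene correlations, 0 passed over all animals and 1 centred on each run, Cnr1 with Gde1 in ethanol animals (-0.93, adjusted permutation p 0.00918, against 0.266 permuted within runs). The Cnr1 r with the central amygdala mean in water animals was 0.94 centred on each run, with an adjusted permutation p of 0.0036, and 0.156 permuted within runs. The cause of these changes was not tested.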
